A study of Homo sapiens with 16 samples.

Results

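The 10 genes described here encode the 5 NF-κB subunits and 5 of the proteins that hold NF-κB in check or modify its activity. They were taken from a fixed list of names, which was chosen with earlier results of these data known. The subunits are NFKB1, NFKB2, REL, RELA and RELB, and the regulators are NFKBIA, NFKBIE, NFKBIZ, BCL3 and TNFAIP3. They are 10 of the 35052 genes in the files, and all 10 passed the filter on low counts, which left 17559 genes to test. K562 cells, an established human erythroleukaemia line labelled as wild type (WT), were treated with 25 nM phorbol 12-myristate 13-acetate (PMA), a diacylglycerol mimic that activates protein kinase C. RNA was taken before treatment (0 h), early (0.5, 1.5, 3 and 6 h) and late (24, 48 and 72 h), with 2 libraries at each of the 8 time points and 16 in all. Cells of the later time points had their medium replaced after 24 and 48 h. The libraries were made from total RNA depleted of ribosomal RNA. The labels do not say whether the 2 libraries of a time point came from separate cultures, so the p-values measure the spread between these libraries, which may be technical. Times were compared with the untreated libraries of 0 h and with the time before; vehicle controls for the later times were not analysed here, so time in culture and PMA cannot be told apart.

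NF-κB proteins bind DNA as pairs of subunits. In resting cells most pairs are kept in the cytoplasm by IκB proteins such as IκBα, the product of NFKBIA, or by the unprocessed precursors p105 and p100, which NFKB1 and NFKB2 encode. Protein kinase C reaches the IκB kinase complex through a CARD protein, BCL10 and MALT1, the kinase marks IκB for destruction, and the freed pairs enter the nucleus and raise the transcripts of several of their own inhibitors. A slower, non-canonical branch runs through the kinase encoded by MAP3K14 and releases pairs of RelB with p52, the processed product of NFKB2.

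Library totals ran from 27285773 to 54056289 estimated reads. Within a time point the libraries numbered 1 and 2 also differed in the gap between transcript length and effective length, which was 210 to 221 nt in the 8 libraries numbered 1, 230 to 248.6 nt in 7 libraries numbered 2 and 199 nt in replicate 2 of 0 h. The difference between the 2 libraries of a time point was correlated with GC content across genes, most for 0 h (r = -0.71) and 72 h (r = -0.56). The other times had r between -0.32 (24 h) and 0.37 (3 h). Also correlated was the change from 0 to 0.5 h (r = -0.76) and to 1.5 h (r = -0.43); from 3 h on r lay between -0.17 and -0.03. Genes are not independent replicates, and these values are descriptions. All 10 erythroid and leukaemia genes checked were present, with a summed level of 1241 to 2333 CPM, reads scaled to a common library total, in each library. A list of 14 genes of other blood and stromal cells summed to 215 to 304 CPM up to 6 h and 393 to 554 CPM from 24 h, with the B cell gene MS4A1 at 0 at 0 h and at most 1 read elsewhere, CD3E at no more than 11 reads and CD14 at no more than 18. Others of the 14 were well above 0 in every library, such as CD68 (57.2 to 192 CPM), LYZ (34.5 to 83.8 CPM), EPCAM (16.6 to 83.2 CPM) and CD3D (5.08 to 17.1 CPM). The collagen gene COL1A1 stood at 3.10 and 3.83 CPM at 0 h and reached 244 CPM. Of 6 megakaryocyte genes, ITGB3 went from 1.75 and 1.29 CPM at 0 h to as much as 1176 CPM, whereas GP9, PF4 and GP1BA had at most 5 reads in any library. ITGA2B stood at 52.6 and 62.9 CPM at 0 h and lay between 12.9 and 64.4 CPM over all libraries. VWF was at 0 CPM in both 0 h libraries and reached 2.03 CPM. The part of these shifts in the results was not tested, and bulk RNA cannot tell fewer cells of a kind from less RNA per cell.

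Because several of these genes are textbook targets of NF-κB, their promoters were searched for the κB motif on both strands in RefSeq windows (GRCh38.p14) reaching from 250 bases before to 50 bases after a transcription start. The windows matched 8 of the 10 genes, with 13 windows among them; RELB and NFKBIE had no entry. The motif was in 9 of the 13 windows and in 7 of the 8 genes, RELA being the one without it, against 5.91% of all 35116 windows and 7.09% of all genes with a window. A match is a description of letters and not a binding site. A second motif, TGANTCA, which AP-1 factors downstream of protein kinase C bind, was in none of the 13 windows and in 7.71% of all windows; its absence says only that those letters are not in these windows. The upstream stretch of NFKBIA is shown whole, and the matches of the other genes with 10 flanking bases or fewer, since these are the sequences the levels below can be set against; the capitals mark the κB match.
NFKBIA upstream, chr14:35404750-35404899, minus strand, ending at the start site: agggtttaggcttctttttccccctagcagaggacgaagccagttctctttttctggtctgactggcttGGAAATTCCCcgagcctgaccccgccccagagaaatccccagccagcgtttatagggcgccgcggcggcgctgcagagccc
NFKB1, chr4:102501300-102501329, plus strand: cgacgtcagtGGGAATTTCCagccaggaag
NFKB2, chr10:102395674-102395703, plus strand: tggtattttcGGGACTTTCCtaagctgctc
REL, chr2:60881518-60881546, plus strand: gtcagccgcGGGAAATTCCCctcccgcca
NFKBIZ upstream start, chr3:101827757-101827786, plus strand: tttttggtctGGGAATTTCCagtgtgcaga
NFKBIZ downstream start, chr3:101849265-101849294, plus strand: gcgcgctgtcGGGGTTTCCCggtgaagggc
TNFAIP3, chr6:137867188-137867217, plus strand: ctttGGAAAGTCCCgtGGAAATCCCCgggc
BCL3, chr19:44748700-44748729, plus strand: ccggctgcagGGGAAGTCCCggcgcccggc
The NFKBIA match lies 72 to 81 bases upstream of the start, the NFKB1 match 40 to 49 bases and the REL matches, which overlap on the 2 strands, 37 to 47 bases. TNFAIP3 has 2 matches between 46 and 67 bases upstream. NFKB2 has 4 stretches with a match over its windows, of which the one nearest a start, 12 to 21 bases upstream, is shown. The BCL3 match lies just downstream of its start. Each of the 2 NFKBIZ starts has its own match, 214 to 223 bases before the upstream start and 230 to 239 bases before the downstream one. All these distances are from the RefSeq start of the window. The matches shown for NFKB2, REL, TNFAIP3, BCL3 and the downstream NFKBIZ start overlap an annotated exon of the same gene.

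At each time more of the 10 transcripts were called higher than lower, and 6 of them, NFKB1, REL, RELA, RELB, NFKBIA and NFKBIE, had their highest mean CPM at 6 h. In TPM the mean of NFKBIE was 30.2 at 6 h and 33.04 at 48 h, its highest. A gene was called where edgeR's quasi-likelihood test gave a Benjamini-Hochberg adjusted p under 0.05 over the 17559 genes tested. After 0.5 h NFKBIZ was called higher and none lower, where 0.165% of all tested genes were called higher and 0.0057% lower (0.171% in all). By 1.5 h 8 were higher and 1 was lower, against 9.05% and 8.05% of all genes (17.1% in all). By 3 h 6 were higher and 2 lower, against 21.5% and 20.5% (42% in all). The 6 h libraries gave 9 higher and none lower, against 27.8% and 29.4% (57.2% in all). After 24 h 8 were higher and 2 lower, against 31.7% and 26.6% (58.3% in all). After 48 h 6 were higher and 1 lower, against 30.2% and 24.1% (54.3% in all), and after 72 h again 6 and 1, against 31.7% and 26.9% (58.6% in all). These 7 comparisons share the 0 h libraries.

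The median log2 fold change of the 10 transcripts against 0 h was -0.02 for the 0.5 h libraries, 0.59 for those of 1.5 h, 0.76 for 3 h, 1.30 for 6 h, 1.05 for 24 h, 0.67 for 48 h and 0.63 for 72 h, while the median of all tested genes lay between -0.03 and 0.00. In the joint test over all times all 10 changed, against 82.9% of all genes. These values are relative to the trimmed-mean (TMM) scaling. Scaling to total counts moved the median of all genes to -0.02 for 0.5 h and, for the later times, to between -0.12 (1.5 h) and -0.35 (6 h). It also moved the calls over all genes towards lower ones. The split became 6.97% higher and 14.8% lower by 1.5 h, 13.4% and 35.5% by 3 h, and 18.3% and 42.1% for the 6 h libraries. After 24 h it was 23.7% and 37.6%, after 48 h 25.4% and 31.9%, and after 72 h 26.9% and 33.7%. Of the 10 transcripts, 7 were then higher and 1 lower after 6 h, where TMM gave 9 and none. By 3 h these were 5 and 3, after 24 h 7 and 2, after 48 h 5 and 2, and after 72 h 5 and 1, and the counts of the first 2 times were as with TMM. The calls gained were all lower ones, of TNFAIP3 after 6 h (-0.57, edgeR adjusted p = 2.75e-04) and of NFKBIZ after 3 h (-0.57, adjusted p = 8.3e-04) and 48 h (-0.38, adjusted p = 0.0102). The calls that depended on a single library, most often replicate 2 of 0 h, are given with each gene.

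**Figure D1:**
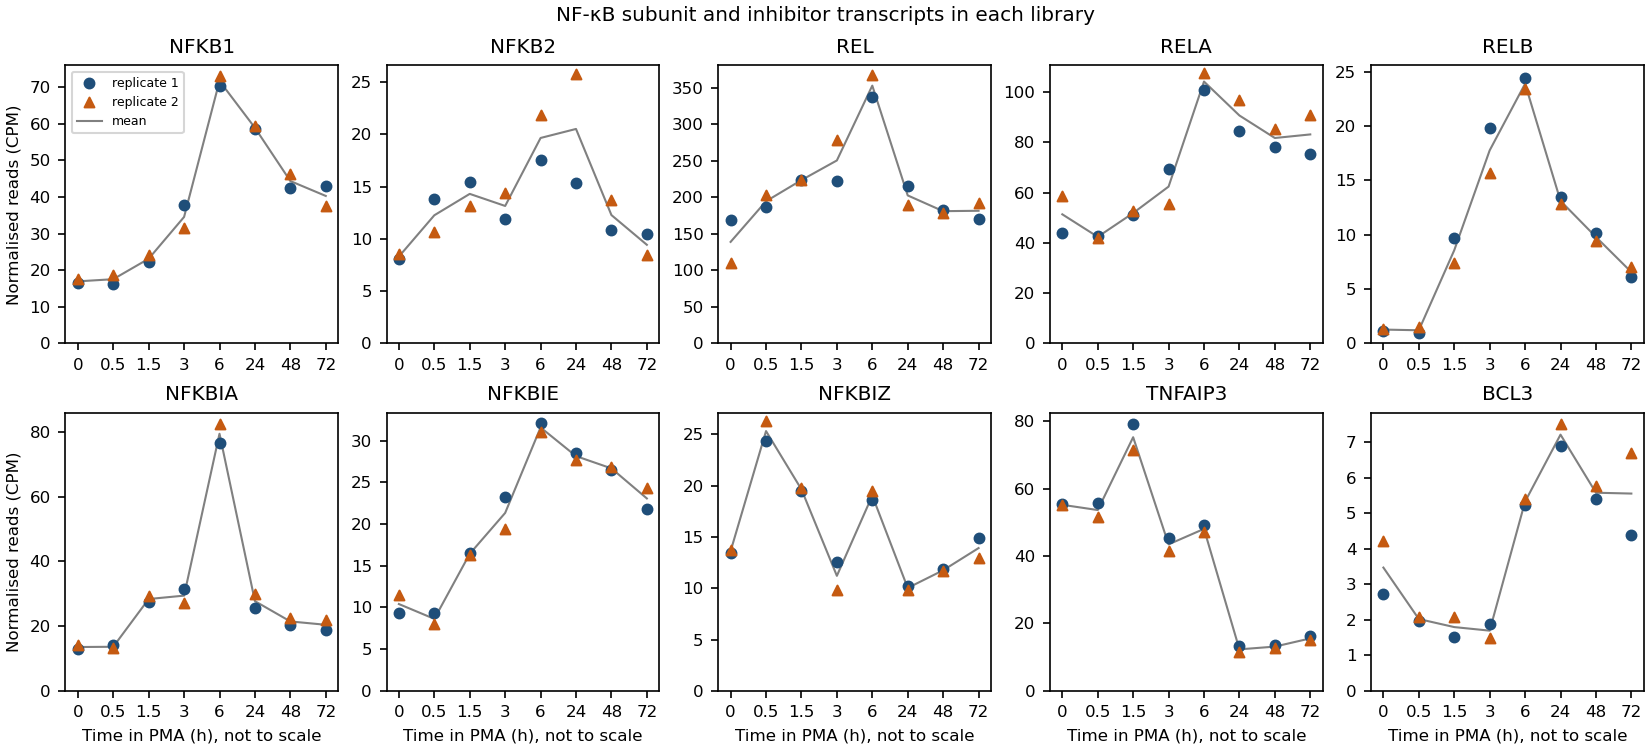
Level of each of the 10 transcripts in CPM on TMM-scaled library sizes (y axis, from 0) against time in PMA in h (x axis, evenly spaced and not to scale); points are the 2 libraries of a time point and the line joins their means. RELB starts at 1.17 and 1.35 CPM and stands at 24.4 and 23.4 CPM at 6 h, while TNFAIP3 stands at 55.4 and 55.04 CPM at 0 h and at 13.2 and 11.5 CPM at 24 h.

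**Figure D2:**
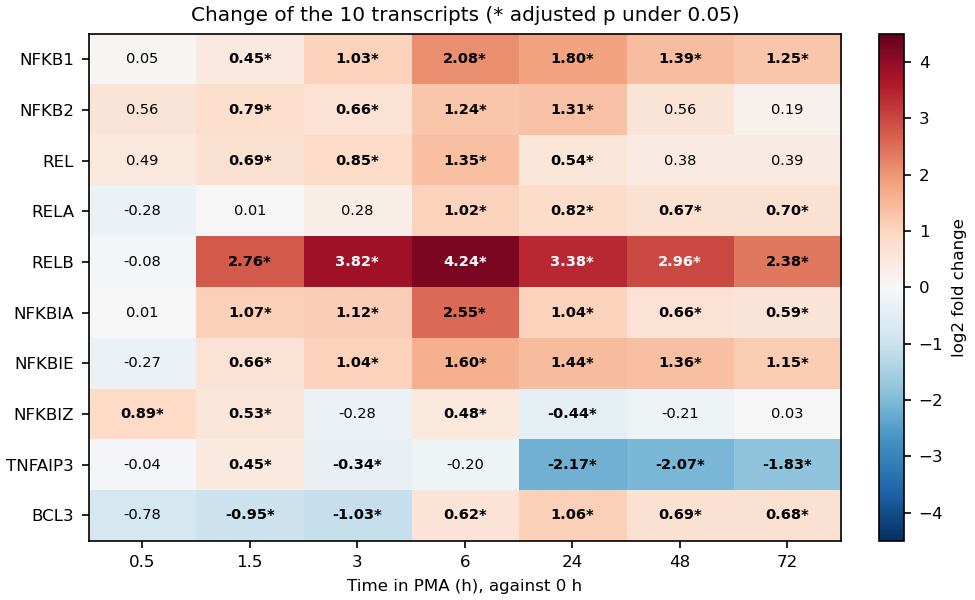
log2 fold change of each of the 10 transcripts (rows) at each time in h against 0 h (columns), with the colour scale in log2 units and an asterisk and bold type where the edgeR adjusted p was under 0.05. The 6 h column holds 9 called rises (7 with total-count scaling), and TNFAIP3 is the only transcript called lower at 48 and 72 h (with total-count scaling NFKBIZ is as well at 48 h).

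RelB, a subunit that carries a transactivation domain and pairs mainly with p52 or p50, had the largest change of the 10. RELB (ENSG00000104856, chr19:45001430-45038198, plus strand, GRCh38) stood at 1.17 and 1.35 CPM at 0 h, 0.90 and 1.49 at 0.5 h, 9.69 and 7.43 at 1.5 h, 19.8 and 15.7 at 3 h, 24.4 and 23.4 at 6 h, 13.4 and 12.8 at 24 h, 10.1 and 9.45 at 48 h, and then 6.10 and 6.997 at 72 h. The 0.5 h libraries lay around the 0 h ones, and every library from 1.5 h on lay above them. The rise was 6.79-fold at 1.5 h (log2 2.76 ± 0.22 SE, edgeR adjusted p = 2.62e-06), 18.9-fold at 6 h (4.24 ± 0.23, adjusted p = 2.03e-09) and 5.19-fold at 72 h (2.38 ± 0.22, adjusted p = 6.69e-07). From 0.5 to 1.5 h it rose by 2.85 ± 0.22 and from 1.5 to 3 h by a further 1.05 ± 0.19 on the log2 scale. The step from 3 to 6 h was not called (adjusted p = 0.0787), and from 6 to 24 h it fell by 0.87 ± 0.18. None of the alternatives run took away a call of RELB from 1.5 h on.

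NFKB1, which encodes p105 and p50, rose up to 6 h and stayed higher to 72 h. NFKB1 (ENSG00000109320, chr4:102501329-102617302, plus strand) stood at 16.4 and 17.5 CPM at 0 h, 16.2 and 18.8 at 0.5 h, 22.1 and 24.1 at 1.5 h, 37.7 and 31.4 at 3 h, 70.3 and 73.2 at 6 h, 58.6 and 59.3 at 24 h, 42.5 and 46.2 at 48 h, and then 43.1 and 37.5 at 72 h. Its 6 h libraries were the highest, and those of 72 h remained above all libraries of the first 1.5 h. NFKB1 rose by 2.08 ± 0.12 on the log2 scale at 6 h (4.24-fold, edgeR adjusted p = 3.43e-09) and was still 2.38-fold higher at 72 h (1.25 ± 0.12, adjusted p = 5.19e-07). Its steps from 1.5 to 3 h (0.58 ± 0.11) and from 3 to 6 h (1.05 ± 0.11) were both called upwards, and those from 6 to 24 h (-0.28 ± 0.11) and 24 to 48 h (-0.41 ± 0.11) downwards. At 1.5 h the difference was 0.45 ± 0.12 (edgeR adjusted p = 0.0188). That call was lost on leaving out any 1 of the libraries of 0 h or 1.5 h and with a fit to those 2 time points alone.

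NFKB2, the gene of p100 and p52, was called higher from 1.5 to 24 h and not at 0.5, 48 or 72 h. NFKB2 (ENSG00000077150, chr10:102394110-102402529, plus strand) stood at 8.10 and 8.50 CPM at 0 h, 13.8 and 10.7 at 0.5 h, 15.5 and 13.1 at 1.5 h, 11.9 and 14.4 at 3 h, 17.5 and 21.8 at 6 h, 15.3 and 25.7 at 24 h, 10.8 and 13.7 at 48 h, and then 10.4 and 8.40 at 72 h. Both 0 h libraries were below every other library except replicate 2 of 72 h, which lay between them. NFKB2 was 2.37-fold higher at 6 h (log2 1.24 ± 0.24, edgeR adjusted p = 4.18e-04) and 2.48-fold higher at 24 h (1.31 ± 0.23, adjusted p = 2.88e-04); without replicate 2 of 24 h the latter was 0.85. The values at 48 h (0.56 ± 0.23, adjusted p = 0.0565) and 72 h (0.19 ± 0.24, adjusted p = 0.521) did not pass. The calls at 1.5 h (0.79 ± 0.23, adjusted p = 0.0356) and 3 h (0.66 ± 0.23, adjusted p = 0.0361) were each lost without either 0 h library. The first was also lost without either 1.5 h library, the second without replicate 2 of 3 h or either 6 h library and with total-count scaling (adjusted p = 0.0501 to 0.184 over these).

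REL, which encodes c-Rel, a subunit best known from lymphoid and myeloid cells, rose up to 6 h and fell by 24 h. REL (ENSG00000162924, chr2:60881521-60931610, plus strand) stood at 169 and 109 CPM at 0 h, 186 and 203 at 0.5 h, 224 and 224 at 1.5 h, 223 and 279 at 3 h, 338 and 368 at 6 h, 215 and 190 at 24 h, 183 and 179 at 48 h, and then 171 and 192 at 72 h. The 0 h libraries differed more from each other than those of any other time, and both were below all other libraries, narrowly so for replicate 1 of 72 h. REL rose 2.54-fold at 6 h (log2 1.35 ± 0.17, edgeR adjusted p = 9.14e-06) and fell by 0.80 ± 0.16 from 6 to 24 h. Its GC content, 39.0%, was the lowest of the 10 transcripts, and the 0 h libraries differed with GC content. Without replicate 2 of 0 h the 1.5 h value went from 0.69 ± 0.16 (adjusted p = 0.0135) to 0.40 (adjusted p = 0.12), the 3 h value from 0.85 ± 0.16 to 0.57 and the 24 h value from 0.54 ± 0.16 (adjusted p = 0.0118) to 0.27 (adjusted p = 0.119). Removing the trend on GC gave 0.42 at 1.5 h (adjusted p = 0.0542) and 0.29 at 24 h (adjusted p = 0.0834). The 1.5 h call was also lost without either 1.5 h library. That at 24 h was lost with total-count scaling (0.29, edgeR adjusted p = 0.196) and without replicate 1 of 24 h. A fit to the 2 time points alone ended both calls.

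RELA, the gene of p65, which supplies much of the transactivating activity of the canonical branch, was called only from 6 h on. RELA (ENSG00000173039, chr11:65653596-65663094, minus strand) stood at 44.1 and 58.6 CPM at 0 h, 42.7 and 42.1 at 0.5 h, 51.2 and 52.5 at 1.5 h, 69.3 and 55.5 at 3 h, 101 and 107 at 6 h, 84.6 and 96.8 at 24 h, 78.1 and 85.4 at 48 h, and then 75.3 and 91.0 at 72 h. The libraries of 1.5 h lay between those of 0 h, and the libraries from 6 h on lay above all earlier ones. RELA was 2.03-fold higher at 6 h (log2 1.02 ± 0.14, edgeR adjusted p = 2.88e-05) and 1.62-fold higher at 72 h (0.70 ± 0.14, adjusted p = 7.98e-04). Total-count scaling took the 6 h value to 0.66 and kept its call. With the GC trend removed, the value at 1.5 h went from 0.01 ± 0.14 to 0.26 (adjusted p = 0.00854) and that at 3 h from 0.28 ± 0.14 (adjusted p = 0.132) to 0.38 (adjusted p = 1.49e-04), and 3 h also passed without replicate 2 of 0 h or of 3 h.

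Both cytoplasmic inhibitors rose up to 6 h; NFKBIA then fell, whereas no later step of NFKBIE was called, and the difference between the 2 courses was not tested. NFKBIA, which encodes IκBα and is itself a target of the factor it restrains (ENSG00000100906, chr14:35401511-35404749, minus strand), stood at 12.8 and 14.3 CPM at 0 h, 14.1 and 13.2 at 0.5 h, 27.6 and 29.2 at 1.5 h, 31.6 and 27.3 at 3 h, 76.5 and 82.4 at 6 h, 25.7 and 29.8 at 24 h, 20.4 and 22.5 at 48 h, and then 18.8 and 21.99 at 72 h. The 2 libraries of 6 h stood far above all others, and from 1.5 h on all were above 0 h. NFKBIA was higher at 1.5 h (log2 1.07 ± 0.12, edgeR adjusted p = 6.51e-05) and 5.87-fold higher at 6 h (2.55 ± 0.12, adjusted p = 8.22e-10). It rose by 1.43 ± 0.12 from 3 to 6 h and fell by 1.52 ± 0.12 from 6 to 24 h, the largest fall over that step of the 10 after that of TNFAIP3. At 72 h it was 1.51-fold higher than at 0 h (0.59 ± 0.12, adjusted p = 8.18e-04).

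NFKBIE encodes IκBε, an inhibitor known for acting more slowly than IκBα. NFKBIE (ENSG00000146232, chr6:44258166-44265788, minus strand) stood at 9.30 and 11.5 CPM at 0 h, 9.30 and 7.97 at 0.5 h, 16.6 and 16.3 at 1.5 h, 23.3 and 19.4 at 3 h, 32.1 and 31.0 at 6 h, 28.6 and 27.7 at 24 h, 26.5 and 26.9 at 48 h, and then 21.8 and 24.4 at 72 h. From 1.5 h on no library overlapped those of 0 h, and those of 24 h lay just below those of 6 h in CPM. NFKBIE was 3.03-fold higher at 6 h (log2 1.60 ± 0.13, edgeR adjusted p = 1.37e-07), 2.70-fold at 24 h (1.44 ± 0.13, adjusted p = 4.55e-07) and 2.22-fold at 72 h (1.15 ± 0.13, adjusted p = 3.79e-06). No step after 6 h was called for it. All calls of NFKBIA and NFKBIE from 1.5 h on were kept in every alternative run.

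The nuclear IκB proteins bind NF-κB on DNA and adjust its output. NFKBIZ, the gene of IκBζ (ENSG00000144802, chr3:101827991-101861022, plus strand), stood at 13.5 and 13.8 CPM at 0 h, 24.4 and 26.3 at 0.5 h, 19.5 and 19.8 at 1.5 h, 12.6 and 9.82 at 3 h, 18.6 and 19.5 at 6 h, 10.2 and 9.84 at 24 h, 11.9 and 11.7 at 48 h, and then 14.9 and 12.9 at 72 h. The 0.5 h libraries were the highest, and a second high stood at 6 h, with the 3 h libraries lower than both. NFKBIZ was 1.86-fold higher at 0.5 h (log2 0.89 ± 0.12, edgeR adjusted p = 0.0058), 1 of only 30 genes called at that time. It fell by 0.81 ± 0.12 from 1.5 to 3 h, rose by 0.76 ± 0.13 from 3 to 6 h and fell by 0.92 ± 0.13 from 6 to 24 h. At 24 h it was below 0 h (-0.44 ± 0.13, adjusted p = 0.00843; -0.69 with total-count scaling).

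The 0.5 h call of NFKBIZ was lost without replicate 2 of 0 h (adjusted p = 0.0562) or replicate 2 of 0.5 h (0.103) and with a fit to those 2 time points alone (0.162), while the log2 value stayed between 0.81 and 0.95 over all alternatives. With the GC trend removed it was 0.81 (adjusted p = 0.00243). The 1.5 h call (0.53 ± 0.12, adjusted p = 0.0123) was lost without replicate 2 of 0 h or either 1.5 h library and with counts rebuilt from TPM (adjusted p = 0.0643 to 0.0831). That of 6 h (0.48 ± 0.12, adjusted p = 0.00435) was lost with total-count scaling, which gave 0.12 (adjusted p = 0.383).

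BCL3 encodes a nuclear IκB relative that pairs with p50 and p52 homodimers, and its transcript was the only one of the 10 to be called lower first and higher later. BCL3 (ENSG00000069399, chr19:44747705-44760044, plus strand) stood at 2.73 and 4.22 CPM at 0 h, 1.95 and 2.09 at 0.5 h, 1.51 and 2.08 at 1.5 h, 1.89 and 1.50 at 3 h, 5.25 and 5.42 at 6 h, 6.91 and 7.53 at 24 h, 5.39 and 5.77 at 48 h, and then 4.40 and 6.72 at 72 h. The libraries of 0.5 to 3 h lay below both of 0 h and those from 6 h above them. BCL3 rose by 1.65 ± 0.26 on the log2 scale from 3 to 6 h (edgeR adjusted p = 1.62e-04) and was 2.08-fold higher at 24 h than at 0 h (1.06 ± 0.24, adjusted p = 0.00194).

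The other BCL3 calls were lost under several alternatives. Without replicate 2 of 0 h the falls at 1.5 h (-0.95 ± 0.26, adjusted p = 0.0237) and 3 h (-1.03 ± 0.26, adjusted p = 0.00573) became -0.61 (adjusted p = 0.27) and -0.68 (adjusted p = 0.082). Without replicate 1 of 0 h the rises at 6 h (0.62 ± 0.25, adjusted p = 0.0442), 48 h (0.69 ± 0.24, adjusted p = 0.0279) and 72 h (0.68 ± 0.24, adjusted p = 0.0278) became 0.34, 0.41 and 0.40 (adjusted p = 0.319, 0.226 and 0.227). BCL3 has the highest GC content of the 10, 66.7%, and removing the GC trend gave -0.52 at 1.5 h (adjusted p = 0.057) and 1.11 at 6 h (adjusted p = 5.89e-05). Other single libraries also ended a call: either 1.5 h library for 1.5 h, replicate 2 of 3 h for 3 h, either 48 h library for 48 h and replicate 2 of 72 h for 72 h (0.35). For 6 h these were either library of 0.5, 6 or 48 h and replicate 1 of 24 h. Total-count scaling ended those at 6 h (0.26), 48 h and 72 h, counts rebuilt from TPM those at 1.5, 3 and 6 h, and a fit to the 2 time points alone those at 1.5, 6, 48 and 72 h.

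TNFAIP3 was the only transcript of the 10 that ended far below its starting level. It encodes A20, a ubiquitin-editing enzyme that shuts off signalling upstream of the IκB kinase. TNFAIP3 (ENSG00000118503, chr6:137867188-137883312, plus strand) stood at 55.4 and 55.04 CPM at 0 h, 55.6 and 51.7 at 0.5 h, 79.1 and 71.4 at 1.5 h, 45.5 and 41.5 at 3 h, 49.1 and 47.0 at 6 h, 13.2 and 11.5 at 24 h, 13.7 and 12.6 at 48 h, and then 16.2 and 15.0 at 72 h. The 1.5 h libraries were above all others, and the 6 libraries from 24 h on were below all others with a wide gap. TNFAIP3 fell by 2.17 ± 0.10 on the log2 scale at 24 h (to 0.222 of its level at 0 h, edgeR adjusted p = 6.71e-10) and was still lower by 1.83 ± 0.10 at 72 h (adjusted p = 2.97e-09). Between 6 and 24 h alone it fell by 1.97 ± 0.10.

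At 1.5 h TNFAIP3 was higher by 0.45 ± 0.10 (edgeR adjusted p = 0.00737; lost without replicate 1 of 1.5 h, adjusted p = 0.0839), and from 1.5 to 3 h it fell by 0.79 ± 0.10 (adjusted p = 3.47e-05). The value at 3 h, -0.34 ± 0.10 (adjusted p = 0.0109), lost its call without replicate 2 of 3 h (adjusted p = 0.0824) and with counts rebuilt from TPM, which gave -0.15 (adjusted p = 0.294). With a fit to the 2 time points alone the TNFAIP3 calls at 1.5 and 3 h were lost as well. The calls at 24, 48 and 72 h were kept in every alternative run.

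Each time was also compared with the one before it. From 0.5 to 1.5 h 4 were higher and none lower, against 4.11% and 1.67% of all genes (5.77% in all). The next step, to 3 h, had 3 higher and 2 lower, against 13% and 12.1% (25.1% in all). From 3 to 6 h 7 were higher and none lower, against 19% and 22.1% (41.2% in all). From 6 to 24 h 6 were lower and none higher, against 25.8% lower and 30.8% higher (56.6% in all); BCL3 (0.44 ± 0.24) and NFKB2 (0.07 ± 0.23) had positive values there and were not called. From 24 to 48 h NFKB1, NFKB2 and NFKBIA were lower and none was higher, against 6.12% lower and 8.88% higher (15% in all). None was called from 48 to 72 h by edgeR or DESeq2, where edgeR called 1.14% of all genes higher and 0.325% lower (1.47% in all) and 2 of the 10 had an unadjusted p under 0.05. With total-count scaling the first step had 4 higher and 1 lower, against 3.45% and 2.5% of all genes, and the second 2 and 2, against 8.95% and 21.9%. The step to 24 h then had 5 lower and none higher, against 18.7% lower and 35.5% higher, and the one to 48 h 1 and none, against 4.1% and 11%. With TMM the 24 to 48 h count was 0 without replicate 2 of 24 h or either 48 h library, and 1 without replicate 1 of 24 h or any one of the 1.5 and 6 h libraries.

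Levels of different genes were compared in TPM, which also divide by transcript length. At 0 h RELA had the highest level of the 10, 41.5 and 50.1 TPM, followed by TNFAIP3 at 35.0 and 36.1 TPM. REL (26.8 and 16.9 TPM) and NFKBIA (17.1 and 17.5 TPM) overlapped, and NFKBIZ, NFKBIE and NFKB1, between 9.29 and 13.1 TPM, each overlapped the next. NFKB2 (8.61 and 8.71 TPM), BCL3 (3.27 and 4.39 TPM) and RELB (1.00 and 1.12 TPM) were lowest, each apart from the next. At 6 h NFKBIA was first with 77.8 and 84.4 TPM, above RELA with 72.1 and 73.1 TPM and REL with 40.5 and 43.0 TPM. NFKBIE and NFKB1 overlapped, with 29.01 to 31.4 and 26.8 to 30.6 TPM, and RELB had moved from last to 7th place with 17.5 and 22.4 TPM. At 24 h RELA was first again at 66.8 and 68.4 TPM, and TNFAIP3, with 5.14 and 6.76 TPM, was last. At 72 h RELA (59.0 and 82.4 TPM) was apart from the rest, NFKBIE, REL and NFKBIA overlapped in a row, and NFKB2, TNFAIP3, BCL3 and RELB overlapped in a row at the bottom.

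Summed over the 5 subunits, the level went from 88.6 and 86.5 TPM at 0 h to 186 and 173 TPM at 6 h and stood at 123 and 149 TPM at 72 h. RELA made up 46.8 and 57.9% of that sum at 0 h and 39.4 and 41.7% at 6 h. RELB made up 1.13 and 1.30% at 0 h, 1.34 and 1.45% at 0.5 h, 10.9 and 9.05% at 1.5 h, 12.1 and 10.1% at 6 h, and then 4.001 and 4.04% at 72 h. NFKB1 went from 12.0 and 11.1% at 0 h to 16.5 and 15.5% at 6 h, and then 17.6 and 15.2% at 72 h. NFKBIA and NFKBIE together stood at 0.298 and 0.354 TPM per TPM of subunits at 0 h, 0.427 and 0.452 at 1.5 h, 0.624 and 0.618 at 6 h, 0.432 and 0.458 at 24 h, and then 0.416 and 0.402 at 72 h. The 6 h libraries were above all others in that ratio, and those of 0.5 h (0.319 and 0.303) lay within the range of 0 h. The ratio leaves out NFKBIB, another IκB gene, and a ratio with it was not computed. NFKBIB stood at 20.2 and 25.0 TPM at 0 h, more than NFKBIA or NFKBIE in either library. It stood at 21.4 and 21.0 TPM at 1.5 h, 20.5 and 20.5 at 6 h, 22.3 and 23.9 at 24 h, and then 14.5 and 20.5 at 72 h. These are transcript levels, with no test, and say nothing of the amounts of protein.

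**Figure D3:**
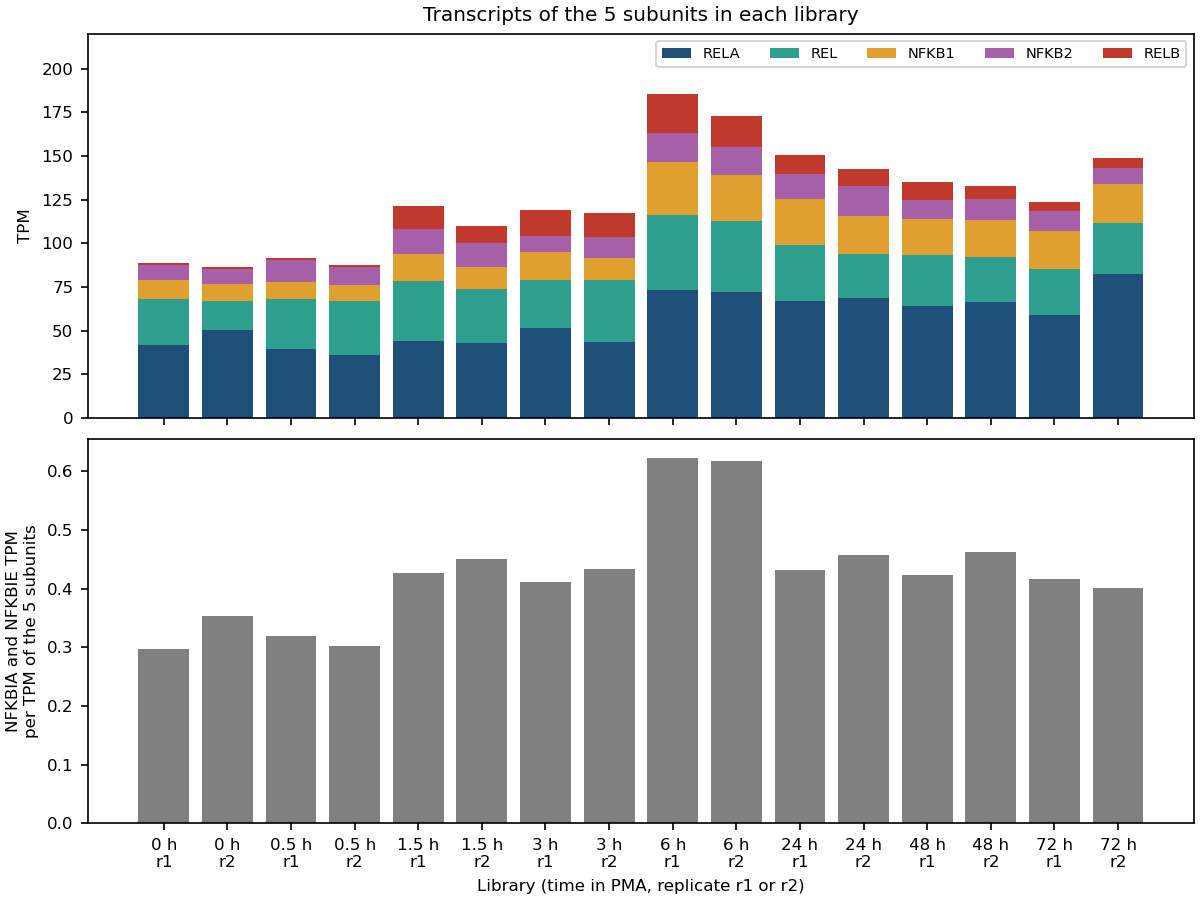
Upper panel: TPM of the 5 subunit genes stacked in each of the 16 libraries, with time in PMA in h and replicate on the x axis. Lower panel: summed TPM of NFKBIA and NFKBIE per TPM of the 5 subunits, as bars from 0. The 2 libraries of 6 h are the tallest in both panels, with 186 and 173 TPM and ratios of 0.624 and 0.618.

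Within the genes, the deposited estimates divide reads among annotated transcripts, and such divisions are less certain than gene sums. Of the NFKBIZ transcripts with a mean of at least 1 TPM, the 2 longest coding ones have separate starts, each with its own κB match among the sequences above, and they held 41.0 to 64.8% of the NFKBIZ TPM in each library. NFKBIZ-207, which starts at position 101827993, stood at 2.38 and 2.67 TPM at 0 h, 3.77 and 4.46 at 0.5 h, 3.81 and 4.46 at 6 h, and then 5.86 and 5.23 at 72 h. NFKBIZ-202, which starts at 101849514, stood at 3.47 and 3.00 TPM at 0 h, 6.26 and 6.71 at 0.5 h, 3.34 and 2.56 at 6 h, 1.53 and 1.12 at 24 h, and then 2.50 and 1.52 at 72 h. Both were above their 0 h libraries at 0.5 h, as was the coding NFKBIZ-209, a short 564 nt transcript, with 6.26 and 6.46 TPM after 2.25 and 3.15 TPM. The upstream-start transcript was above its 0 h range at every later time, with 4.67 to 5.23 TPM at 1.5 h and 2.98 to 3.02 TPM at 3 h. The downstream-start one was above its 0 h range at 1.5 h too (3.99 to 4.41 TPM). It was below that range at 3 h (1.35 to 1.94 TPM), overlapped it at 6 h and was below it from 24 h on. The difference between the 2 transcripts was not tested.

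**Figure D4:**
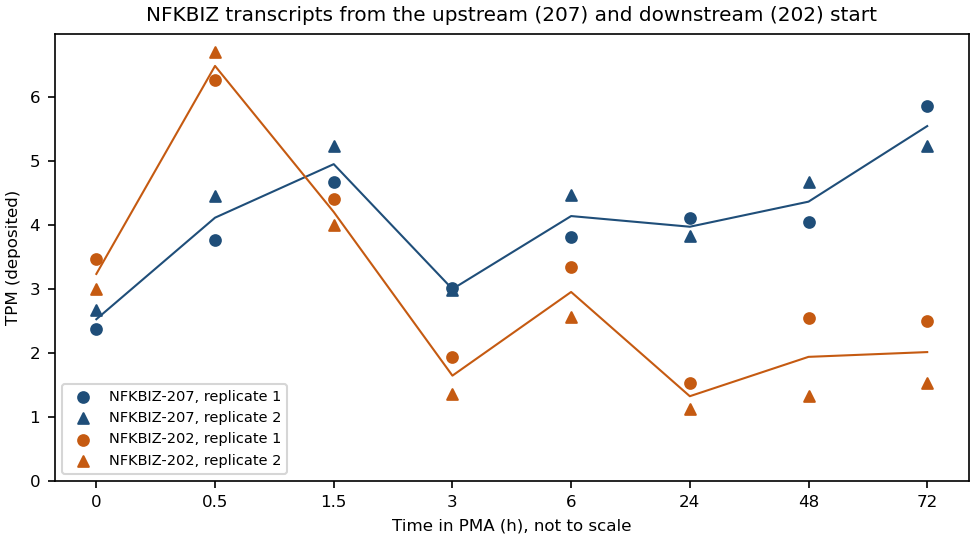
Deposited TPM (y axis, from 0) of NFKBIZ-207 (upstream start) and NFKBIZ-202 (downstream start) in each library against time in PMA in h (x axis, evenly spaced); circles and triangles are replicates 1 and 2 and lines join the means. NFKBIZ-202 is highest at 0.5 h with 6.26 and 6.71 TPM, and NFKBIZ-207 is highest at 72 h with 5.86 and 5.23 TPM.

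For NFKB2, 50.8 to 82.8% of the TPM in each library was assigned to a single retained-intron transcript of 1634 nt, and coding transcripts held 10.4 to 44.8%. Of the estimated reads, on which the CPM and the tests rest, that transcript held 37.1 to 82.8% and coding transcripts 14.6 to 61.9%, with the 37.1% and the 61.9% both in replicate 2 of 24 h. Coding transcripts held 82.5 to 92.7% of the TPM of REL, 85.9 to 98.2% of that of TNFAIP3 and 75.3 to 90.1% of that of NFKBIA. RELB-207, the leading RELB transcript, was listed at 0 TPM in replicate 1 of 24 h and at 6.11 TPM in replicate 2, while the RELB sums of the 2 libraries were close, at 13.4 and 12.8 CPM.

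Upstream of these genes, receptors and adaptors were called in both directions, at 6 and 24 h in a share near that of all genes. Of 12 tested, 5 were higher and 3 lower at 3 h, 5 and 2 at 6 h, 5 and 1 at 24 h and, after 72 h, 6 and 2; none was called at 0.5 h and 1 was lower at 1.5 h. In all, 7 of the 12 were called at 6 h, beside 57.2% of all tested genes, and 6 of 12 at 24 h, beside 58.3%. Of all tested genes 9.05% were higher and 8.05% lower by 1.5 h, and 21.5% and 20.5% by 3 h. The shares after 48 h were 30.2% and 24.1%, and those after 72 h 31.7% and 26.9%. The median log2 fold change of the 12 at 6 h was 0.18. IL1R1, a receptor for interleukin 1, had the largest rise, from 1.03 and 1.63 CPM at 0 h to 11.4 and 12.8 CPM at 6 h (log2 3.18 ± 0.26, edgeR adjusted p = 1.71e-07). TRADD, an adaptor of the TNF receptor, had the largest fall, from 7.30 and 9.75 CPM to 2.38 and 3.98 CPM at 3 h (-1.41 ± 0.23, adjusted p = 1.88e-04). IRAK1, a kinase below interleukin 1 and Toll-like receptors, was the most abundant of this list by TPM. IRAK1 was called higher at 3 and 6 h (0.41 ± 0.13 and 0.33 ± 0.13, edgeR adjusted p = 0.0217 and 0.0465) and lower at 24 h (-0.67 ± 0.13, adjusted p = 6.12e-04).

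Of 15 kinases and adaptors leading to and forming the IκB kinase complex, 4 were higher and 2 lower at 1.5 h, 7 and 5 at 3 h, 9 and 5 at 6 h, 10 and 2 at 24 h and, after 72 h, 9 and 4. Beside these stand 9.05% of all genes higher and 8.05% lower by 1.5 h, 21.5% and 20.5% by 3 h, and 27.8% and 29.4% by 6 h. The late shares were 31.7% and 26.6% (24 h) and 31.7% and 26.9% (72 h). The median of the 15 at 6 h was 0.50. MAP3K14, which encodes NIK, the kinase of the non-canonical branch, had the largest rise. It stood at 8.92 and 9.05 CPM at 0 h, 49.0 and 49.9 CPM over the 6 h libraries and 21.4 and 23.8 CPM over those of 72 h (log2 2.46 ± 0.11 at 6 h, edgeR adjusted p = 3.97e-10). CARD9, a CARD adaptor of myeloid cells, had the largest fall, from 60.3 and 72.2 CPM at 0 h to 9.70 and 10.7 CPM at 6 h (-2.70 ± 0.13, adjusted p = 5.41e-10). MAP3K7, the gene of TAK1, was the most abundant by TPM and was higher at 6 h by 0.50 ± 0.10 (adjusted p = 0.001).

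Of 16 ubiquitin ligases, deubiquitinases and their adaptors, the list to which A20 is functionally closest, 3 were higher and 2 lower at 1.5 h, 5 and 7 at 3 h, 10 and 4 at 6 h, 12 and 2 at 24 h and, after 72 h, 11 and 2. The shares over all genes are those just given, so at 6 h 27.8% higher and 29.4% lower. The median of the 16 at 6 h was 0.76. RBCK1, which encodes HOIL-1 of the linear ubiquitin ligase complex, was both the most abundant by TPM and the one with the largest fall, from 65.2 and 85.4 CPM at 0 h to 15.6 and 19.4 CPM at 6 h (log2 -2.10 ± 0.16, edgeR adjusted p = 9.04e-08). TRAF1 had the largest rise, from 2 reads in each 0 h library (0.061 and 0.064 CPM) to 5.44 and 6.55 CPM at 48 h, where it was called (adjusted p = 6.31e-09). Among the 2 other IκB genes tested, NFKBID rose to 16.9 and 17.4 CPM at 6 h from 5.52 and 6.66 CPM at 0 h (1.49 ± 0.17, adjusted p = 5.08e-06), and NFKBIB was called only at 72 h, lower by 0.45 ± 0.17 (adjusted p = 0.0385).

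Downstream, most of the textbook targets of NF-κB that could be tested were called higher from 3 h on. Of 25 listed, 24 were in the files and 19 passed the filter on low counts. Among transcripts matched to a gene, TNF had no read in any library, and LTB, VCAM1, SELE and IER3 had at most 5. Unmatched transcripts, with 3.01 to 3.75% of reads, were not used. Whether they held reads of these genes was not tested. LTA was not analysed here. Among the 19, 1 was higher and none lower at 0.5 h, 7 and 2 at 1.5 h, 12 and 2 at 3 h, 13 and 2 at 6 h, 13 and 4 at 24 h, 14 and 3 at 48 h and, after 72 h, 13 and 3. Of all tested genes 0.165% were higher by 0.5 h, 9.05% by 1.5 h, 21.5% by 3 h and 27.8% by 6 h. The shares of the late times were 31.7% (24 h), 30.2% (48 h) and again 31.7% (72 h). The shares lower were 8.05% by 1.5 h, 20.5% by 3 h and 29.4% by 6 h. For the late times they were 26.6% (24 h), 24.1% (48 h) and 26.9% (72 h). Their median log2 fold change was 0.37 at 1.5 h, 1.44 at 6 h and 1.11 at 72 h, and setting the 3 genes with at most 3 reads over the 0 h libraries to that floor gave the same medians. The 19 are those that passed the filter, and a gene could pass through the times at which it was high.

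CXCL8, which encodes a neutrophil chemokine, was the target called at 0.5 h (log2 1.45 ± 0.15, edgeR adjusted p = 5.84e-04), was highest at 6 h (8.08 ± 0.18) and was still higher at 72 h (1.11 ± 0.15, adjusted p = 2.9e-05). CXCL2 and CXCL3 were higher at 6 h (3.52 ± 0.11 and 5.82 ± 0.11) and below 0 h at 72 h (-2.29 ± 0.13 and -1.45 ± 0.11). CXCL1, CXCL2 and CXCL3 are near-identical copies whose reads may have been split between them, so their separate values are uncertain. CCL2, a monocyte chemokine and the most abundant target by TPM, came later: it stood at 0.491 and 0.515 CPM at 0 h, 0.297 and 0.476 over the 1.5 h libraries, 106 and 115 CPM at 6 h and 741 and 861 CPM at 24 h (10.63 ± 0.21, adjusted p = 2.03e-13). CSF2, which encodes GM-CSF, had 0 and 1 read at 0 h and 1296 and 1494 reads at 6 h (55.3 and 52.9 CPM). BCL2L1, the gene of the survival protein Bcl-xL, had the largest fall of the list, from 178 and 214 CPM at 0 h to 27.6 and 28.8 CPM at 6 h (-2.80 ± 0.12, adjusted p = 2.61e-10), and stood at 196 and 206 CPM at 24 h. CXCL8, CXCL2, CXCL3 and the late interleukin gene IL1B, called from 24 h on, were singled out after their values were seen.

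**Figure D5:**
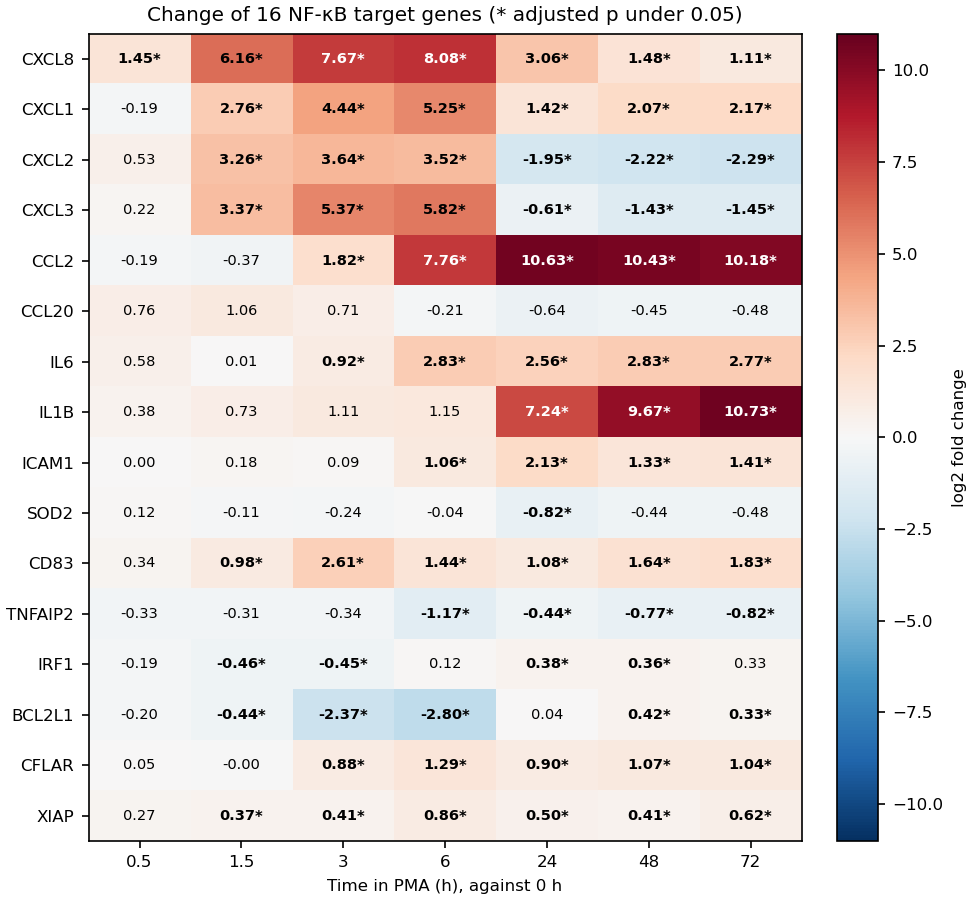
log2 fold change of 16 NF-κB target genes (rows) at each time in h against 0 h (columns), with an asterisk and bold type where the edgeR adjusted p was under 0.05; BCL2A1, PTGS2 and CSF2, with at most 3 reads over the 0 h libraries, are not drawn. CXCL8 has its own highest values at 3 and 6 h, CCL2 and IL1B theirs from 24 h on, and CXCL2 and CXCL3 change from higher to lower between 6 and 24 h.

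For 9 of the 10 transcripts, BCL3 being under the 5 CPM minimum, the genes with the most similar course were found by Pearson's r of log2 CPM over the 16 libraries, among 11268 genes. These correlations are descriptions over libraries that come in pairs of 1 time point and share the scaling. RELB was most like MAP3K14 (r = 0.985), and next SQSTM1 (0.978). NFKB1 was most like TPM3 (0.988) and ANXA2 (0.987), which encode a tropomyosin and annexin A2. NFKBIA was most like DNAJB6 (0.959) and SCAF8 (0.956), and NFKBIE was most like MAPKBP1 (0.979) and FAM131A (0.975). RELA was most like ZNF513 (0.987) and ACIN1 (0.983), and REL was most like SMC5 (0.961) and UBE3A (0.946). For TNFAIP3 the nearest were MEGF6 (0.975) and USP32P1 (0.974), the second being a pseudogene whose reads may be shared with its parent. The likeness was lower for NFKBIZ, with TGFBR3 (0.914) and ZNF525 (0.888), and for NFKB2, with RPF1 (0.875) and UTP14A (0.856). No member was among the 2 genes most like another member.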

How the data were processed

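RNA of K562 cells was measured in 16 libraries, 2 at each of 8 times in 25 nM PMA. Per the file headers, the authors deposited for each of 177456 transcripts its length, effective length, TPM and estimated count of reads; per the submitters' processing notes, Trim Galore 0.4.3, Salmon, HISAT2 2.1.0 and DESeq2 were among the tools and hg19 and hg38 the builds named, with no role given. The Salmon version, annotation and strand setting are not given in the sources used here. The deposited TPM were summed per gene and used as they are.

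The deposited estimated counts were summed over each gene's transcripts through GENCODE 29 (GRCh38), which matched 167027 transcripts (94.1%); the 10429 unmatched transcripts, with 3.01 to 3.75% of reads, were not used. Sums were rounded to whole numbers. edgeR 4.0.16 (R 4.3.3) was fitted to all 16 libraries with time as the only factor (TMM factors 0.854 to 1.14, filterByExpr, 17559 genes tested, prior count 0.125, quasi-likelihood F-test, 8 residual degrees of freedom, common coefficient of variation 0.123), with Benjamini-Hochberg adjustment over all genes tested and a threshold of 0.05. Errors are standard errors. Values given as CPM use TMM-scaled totals, and 3 reads correspond to 0.0555 to 0.11 CPM.

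The members and gene lists were chosen with earlier results of these data known. Named from each pathway list were the gene with the highest mean TPM and the called genes with the largest rise and fall whose mean reached 1 CPM; named as most alike were the 2 genes with the highest r among those whose mean reached 5 CPM. Promoter sequences are from RefSeq (GRCh38.p14). The fit was tested on simulated data for 72 h against 0 h: over 17559 genes with 200 changed, the fit recovered 56% of 2-fold and 81% of 4-fold changes, with 3 false among 140 calls. The alternatives were DESeq2 size factors, total-count scaling, no filter, at least 10 reads in every library, DESeq2 1.42.0, counts rebuilt from TPM, only the 2 time points compared, a replicate block, removal of a GC trend with and without that block, a threshold of 0.01 and leaving out each library.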

Additional observations from a re-analysis of the deposited data

Results flagged for a closer look

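For 3 genes the calls against 0 h went in opposite directions at different times, and the 2 times furthest apart were then compared directly with edgeR; these pairs of times were chosen after the values were seen. NFKBIZ was lower at 24 h than at 0.5 h by -1.34 on the log2 scale (SE 0.13, adjusted p = 7.03e-07), with both libraries of 24 h below both of 0.5 h. TNFAIP3 was lower at 24 h than at 1.5 h by -2.62 (SE 0.10, adjusted p = 1.21e-10), again without overlap. BCL3 was lower at 3 h than at 24 h by -2.08 (SE 0.25, adjusted p = 1.05e-05), without overlap, and this comparison uses neither 0 h library.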

How the results depend on the processing

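Over 11 other settings, 525 of the 561 values of the 51 called changes kept direction and call and 36 lost the call; on leaving out 1 library, 773 of 816 did and 43 lost it. None of these called changes reversed. Uncalled values near 0 did: at 0.5 h NFKB1 was -0.0747 with counts rebuilt from TPM, RELA 0.0279 with the GC trend removed (0.0290 with the block too), RELB 0.253 with counts from TPM and 0.341 with the GC trend removed (0.342 with the block too), NFKBIA -0.0081 with total-count scaling and TNFAIP3 0.0140 with counts from TPM and 0.0120 with the GC trend removed (0.0121 with the block too). With total-count scaling RELA was -0.0725 at 1.5 h and -0.0030 at 3 h, and NFKBIZ at 72 h was -0.1293, against -0.0053 with those 2 times alone, -0.0905 with the GC trend removed and -0.0913 with the block too. Leaving out 1 library gave, at 0.5 h, -0.0568 to 0.1559 for NFKB1, -0.4815 to 0.2488 for RELB, -0.0609 to 0.0878 for NFKBIA and -0.0901 to 0.0136 for TNFAIP3, then -0.1751 to 0.2302 for RELA at 1.5 h and -0.0732 to 0.134 for NFKBIZ at 72 h.

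The number of the 10 called at 0.5 h was 1; it was 4 with no filter, 0 with those 2 times alone and 0 to 4 on leaving out 1 library (0 without replicate 2 of 0 h or of 0.5 h, 4 without replicate 1 of 0 h). At 1.5 h it was 9; it was 5 with those 2 times alone, 4 at a threshold of 0.01 and 3 to 9 on leaving out 1 library (3 without replicate 1 of 1.5 h, 4 without replicate 2 of 0 h or of 1.5 h). From 0.5 to 1.5 h it was 4, and 8 with those 2 times alone and 7 with the GC trend removed, with or without the block; from 1.5 to 3 h it was 5, and 2 with counts from TPM. From 24 to 48 h it was 3; it was 1 with DESeq2 size factors, total-count scaling, at least 10 reads or counts from TPM, 5 with the GC trend removed, 6 with the block too, 0 at a threshold of 0.01 and 0 to 3 on leaving out 1 library. From 48 to 72 h it was 0, and 1 with the block and the GC trend removed. The cause of these shifts was not tested.

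The difference between replicates 1 and 2 was correlated between times over 9972 genes. Of 28 pairs of times 24 had r over 0.1, with a median of 0.27, a highest of 0.60 and a lowest of -0.29. For every time the largest positive r exceeded the largest negative one in size, an outcome that both libraries of a time share. The replicate numbers thus went with a shared difference at most pairs of times but not at every pair, and the main fit used no block. With the replicate block the counts against 0 h were 1, 9, 8, 10, 10, 7 and 7 over the times; the one change was at 6 h, where TNFAIP3 (-0.20) was also called (adjusted p = 0.04); it was called there with total-count scaling too. With 2 libraries a time, the test recovered 56% of simulated 2-fold changes at 72 h against 0 h, where 200 of 17559 genes were changed. In the data 58.6% of genes were called at that time, and the share of 2-fold changes recovered there was not tested. An uncalled transcript is therefore not shown to be unchanged.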
